A study of Mus musculus with 10 samples.

Results

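The wild-type cochlea of the mouse at postnatal day 8 was described from 5 RNA sequencing libraries, the 5 of 10 libraries in the series whose genotype is given as Pknox2+/+. They were chosen by that label alone, and the other 5 libraries, labelled Pknox2-/-, were not compared with them. Each library was made from cochleas kept in RNAlater, with total RNA extracted from the dissected organ. No source used here gives the strain, the sex or the number of pups behind a library. The samples are described as biologically independent, so biological and technical differences both enter the spread between libraries and cannot be told apart.

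The cochlea is the hearing organ of the inner ear. Its hair cells turn sound into electrical signals under the tectorial membrane, an acellular gel, and rest on supporting cells. The stria vascularis of the lateral wall pumps potassium into the fluid over the hair cells, with fibrocytes and gap junctions returning it. Spiral ganglion neurons, wrapped by Schwann cells, carry the signal to the brain. All of this sits in a shell of bone and cartilage that contains marrow, so a dissected cochlea also yields RNA of bone, blood and nerve sheath. In bulk RNA a higher or lower level can come from the number of cells of a type or from the RNA in each cell, and these cannot be told apart.

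The deposited table held 27179 genes as raw read counts. Library totals ran from 16.6 to 19.4 M counts. Levels are given as CPM, a gene's counts per M counts of the library total, and, wherever different genes are compared, as TPM, which divides by exon length before the same scaling. At this depth 3 counts, the limit that a count of 0 allows, correspond to 0.155 to 0.180 CPM in a library. That limit covers counting error only. In all 5 libraries 14655 genes reached 1 CPM, while 5975 genes had no count in any of them. No pair of libraries agreed within sampling noise.

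The libraries differed among themselves in 4 ways that touch many results below. Genes of blood, marrow and dividing cells were higher in WT 1, 2 and 3 than in WT 4 and 5. Short transcripts were relatively high and long transcripts relatively low in WT 2, with the opposite in WT 5. Genes of sensory ganglion neurons were highest in WT 4 and lowest in WT 1. Xist and Y-linked genes differed in WT 5, and Xist also in WT 2. The Pearson correlation of log2 CPM across genes, given as a description, was lowest between WT 2 and WT 5, at 0.967, and highest between WT 1 and WT 3, at 0.990.

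By counts, the top 10 genes included transcripts of cartilage, bone, connective tissue and myelin, with mitochondrial transcripts among them. The gene with the most counts was Col2a1 (Entrez 12824, chromosome 15, 97975602 to 98004724, GRCm38), the main collagen of cartilage. It stood at 8847, 5922, 7333, 9186 and 11208 CPM in WT 1 to 5, and took 0.8499% of all counts on average. WT 2 was the lowest and WT 5 the highest library for this gene. Also among the highest by mean CPM were COX1, a mitochondrially encoded subunit of cytochrome oxidase, Ibsp, a bone sialoprotein, and the chains of type I collagen, Col1a2 and Col1a1. An ID without a gene name ranked seventh at 2402 to 6951 CPM and is not described further. The 10 top genes held 5.91% of the counts and the 100 top genes 17.7%. It took 1337 genes to reach 50% and 7253 to reach 90%, so no small group of genes filled the libraries.

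Per length, a different order appeared. COX1 had the highest level at 13288 ± 1501 TPM (SD, n = 5), followed by Hba-a1, an alpha globin of red cells, at 9500.3 ± 4123 TPM. The libraries of Hba-a1 ran from 4833 to 15169 TPM and overlapped those of COX1, which ran from 11797 to 15407 TPM. Of the genes below them CYTB, ND1 and Ibsp overlapped each other, with CYTB at 9245 ± 1061 TPM, ND1 at 8560.2 ± 1242 TPM and Ibsp at 8511 ± 1046 TPM. Ptgds, the prostaglandin D synthase of meninges and of several other tissues, had 7423 ± 877 TPM. Bglap, which encodes osteocalcin of osteoblasts, had 5559 ± 884 TPM, and Eef1a1, a translation elongation factor, had 5555 ± 606 TPM. Col2a1, whose exons span 5104 bases, was eleventh per length at 4358 ± 1232 TPM. On this scale 687 genes held 50% of the total.

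The marker genes of the organ covered more than 3 powers of 10 per length. Otos (Entrez 260301, chromosome 1, 92644218 to 92648899), the otospiralin of lateral wall fibrocytes, was at rank 12 with 3971 ± 1109 TPM (SD, n = 5). Its values in WT 1 to 5 were 687, 1535, 845, 1148 and 1210.2 CPM, with WT 2 highest and WT 1 lowest. Coch (Entrez 12810, chromosome 12, 51593283 to 51606619), cochlin of the otic matrix, was at rank 77 with 1415 ± 211 TPM. It stood at 1524, 1406, 1213, 1516 and 1639.5 CPM and varied less between libraries than Otos, with a CV (SD over mean) of 11.01% against 30.5%. Pmp22, a peripheral myelin protein, was at rank 20 with 2743 ± 274 TPM, and Gjb2, the connexin 26 gene of cochlear gap junctions, at rank 176 with 700.2 ± 92.9 TPM.

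Lower in the order stood the markers of neurons, tectorial membrane, stria and outer hair cells. Nefl (Entrez 18039, chromosome 14, 68083863 to 68089095), the light neurofilament chain, had 505 ± 106 TPM at rank 254. Tectb (Entrez 21684, chromosome 19), beta-tectorin of the tectorial membrane, had 119 ± 29.4 TPM. Its values were 159, 108, 105, 169 and 111 CPM, with WT 1 and 4 above the other 3 libraries. Kcnq1, the potassium channel of strial marginal cells, had 45.2 ± 8.07 TPM. Slc26a5 (Entrez 80979, chromosome 5, 21809001 to 21865604), prestin, the motor protein of outer hair cells, had 3.85 ± 2.11 TPM. It was at 4.27, 1.95, 4.02, 3.52 and 7.78 CPM, lowest in WT 2 and highest in WT 5. All 9 markers were detected in every library.

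**Figure D1:**
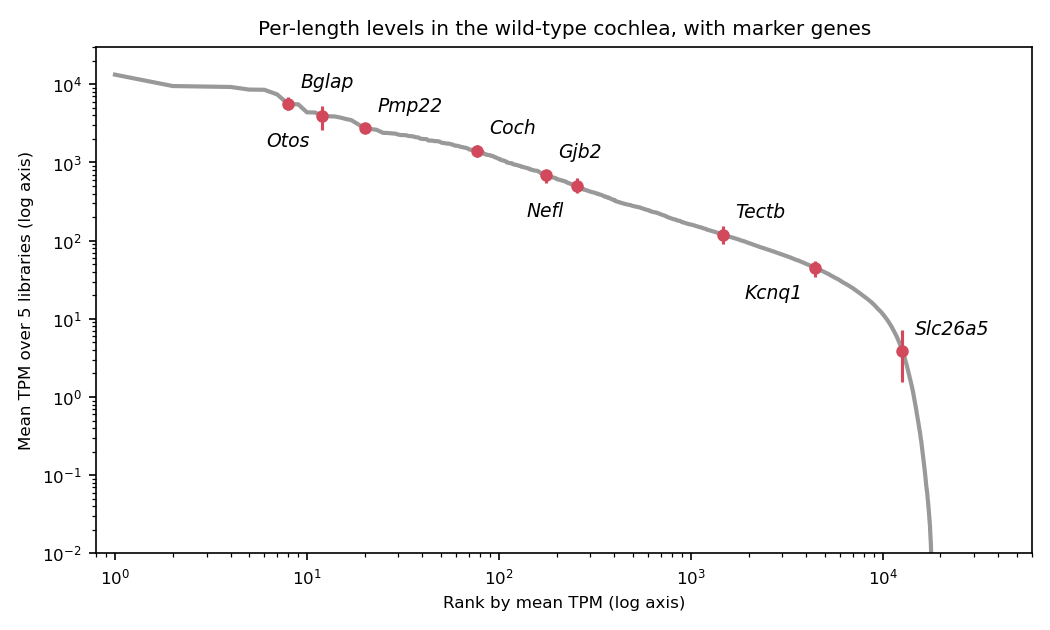
Mean TPM over the 5 wild-type libraries against rank, both on log axes, for all genes with an exon length (grey line). Red points are the 9 marker genes and red bars run from the lowest to the highest library. Bglap, Otos and Pmp22 lie within the 20 highest ranks, and Slc26a5 lies at 3.85 TPM with the widest bar.

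The counts were then summed within 40 gene lists for cell types, accompanying tissues and cell programmes. The lists held 1534 of the 27179 genes, so most counts lay outside them and the shares are no breakdown of the tissue. The total of a class also depends on how many genes its lists hold. A share is of counts and not of cells, and the lists hold marker genes, not all genes of a type. Bone and cartilage lists together held 3.91% ± 0.330 of the counts (SD, n = 5), neural lists 2.501% ± 0.270 and the mesenchyme list 2.37% ± 0.259. Blood and marrow lists held 0.961% ± 0.374, lateral wall lists 0.819% ± 0.0496, sensory epithelium lists 0.294% ± 0.0217 and vessel lists 0.172% ± 0.00944. Each of the 5 libraries had more counts in bone and cartilage lists than in any other of these classes.

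**Figure D2:**
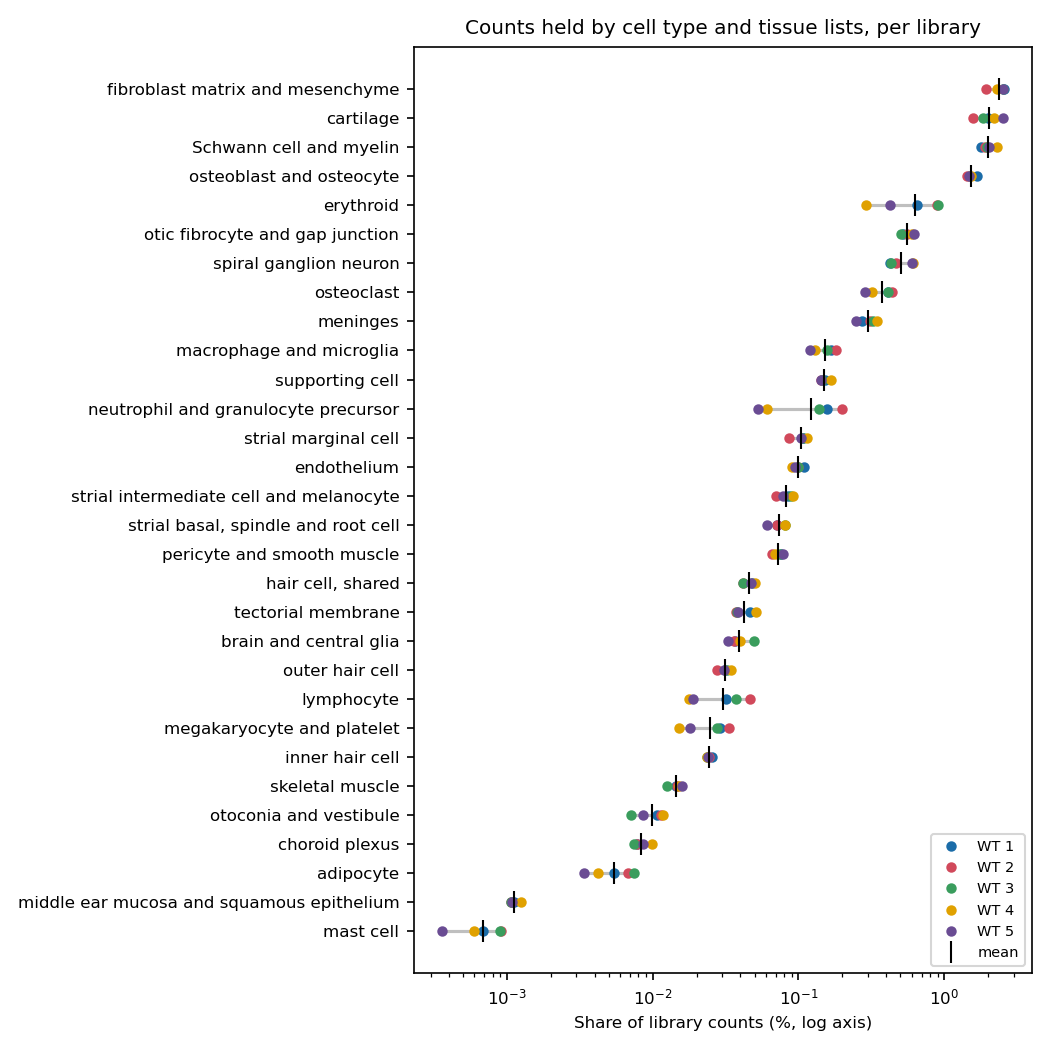
Share of each library's counts, in percent on a log axis, held by the 30 cell type and tissue lists, with 1 coloured point per library and a black tick at the mean of 5. Fibroblast matrix, cartilage, Schwann cell and osteoblast lists lie above 1%, the hair cell lists lie below 0.1%, and the points of the neutrophil, erythroid and lymphocyte lists are the most spread out.

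Skeletal genes were led by matrix proteins. The osteoblast and osteocyte list took 1.52% ± 0.0927 of the counts, and Ibsp alone made up 44.6% of that. Ibsp was at 7515, 6008, 6514, 6951 and 6866 CPM in WT 1 to 5, a narrow range with WT 1 highest. Osteocyte genes were also high per length: Dmp1, a matrix protein of osteocytes that bears on mineralisation, had 1615 ± 188 TPM, and Sost, which encodes the Wnt inhibitor sclerostin, had 154 ± 27.0 TPM. The transcription factor genes of the lineage were lower, with Sp7 at 195 TPM and Runx2 at 43.0 TPM. Bglap and Bglap2 are close copies of the osteocalcin gene and their separate levels, 5559 and 3899.7 TPM, are uncertain because reads could be split between them.

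Cartilage genes took 2.02% ± 0.360 of the counts, and 19 of 20 list members reached 1 CPM. Fibrillar and fibril-associated collagens were the highest. Col11a2 had 1641 ± 379 TPM, Col9a1 1269 ± 237 TPM and Col9a2 1249.7 ± 305 TPM. Cnmd, which encodes chondromodulin, had 652 TPM, while Acan, the large aggregating proteoglycan of hyaline cartilage, had 34.1 ± 8.88 TPM and Comp had 1.48 ± 0.161 TPM. Matn3, a matrilin of growth cartilage, stayed under 1 CPM, at a mean of 0.227 CPM. Col10a1 and Ihh, genes of hypertrophic and prehypertrophic cartilage, were at 8.59 and 5.31 TPM. Col2a1 and other collagens of the otic capsule are also found in the acellular tectorial membrane and made by other inner ear tissues. The list therefore cannot be assigned to cartilage alone.

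Osteoclast genes took 0.373% ± 0.0662 of the counts. The protease gene Ctsk, whose product degrades bone collagen, had 2270.4 ± 398 TPM, Acp5, the tartrate-resistant phosphatase gene, had 1567 ± 293 TPM and Mmp9, a gelatinase gene, had 588 ± 106 TPM. Ctsk was at 1326, 1691, 1539, 1136 and 979.6 CPM in WT 1 to 5, and its lowest libraries were WT 4 and 5. All 15 members of the list lay below their own 5-library mean in both WT 4 and WT 5. The receptor gene Tnfrsf11a, which encodes RANK, had 9.54 TPM.

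Connective tissue genes were abundant. The list of fibroblast matrix and mesenchyme took 2.37% of the counts, with a CV of 10.9% between libraries. Sparc, a collagen-binding matrix protein, had 3746 ± 449 TPM, Col1a2 3207 ± 679 TPM, Col1a1 2501 ± 409 TPM and Dcn, the small proteoglycan decorin, 1029 TPM. Fn1, which encodes fibronectin, varied most in this list. It had 765, 394, 689, 555 and 686 CPM, and WT 2 was the lowest library, as it was for Col1a2, Col1a1 and Sparc.

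Schwann cell and myelin genes took 1.996% ± 0.190 of the counts. Mbp, the myelin basic protein gene of peripheral and central myelin, had 1309 ± 174 TPM, S100b 2094 ± 259 TPM and Prx, the periaxin gene of peripheral myelin, 418 ± 81.8 TPM. Mbp was at 3442, 3872, 4615, 4730.1 and 3867 CPM in WT 1 to 5, with WT 3 and 4 above the other 3 libraries. Sox10, the transcription factor of the lineage, had 174 ± 32.7 TPM. In WT 4, 24 of 25 members were above their own mean, in WT 5 18, and in WT 1 to 3 between 4 and 6.

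Markers of central glia were present beside them at lower levels. Mog, a protein of oligodendrocyte myelin, was at 42.7, 30.5, 53.8, 42.8 and 33.0 CPM in WT 1 to 5, and Mobp, another such protein, at 126, 80.8, 171, 125 and 115 CPM. Both were highest in WT 3 and lowest in WT 2. Olig1, a transcription factor gene of oligodendrocytes, had 42.5 TPM, and Gfap, an astrocyte filament gene also made by some Schwann cells, had 105 ± 20.6 TPM. The neuron markers Pcp2, Neurod6 and Gabra6 were at or near the detection limit, at 0.147, 0.0473 and 0.0221 CPM on average. The other 9 of the 12 list members, among them the cerebellar genes Cbln1, Cbln3 and Car8, had means of 1 CPM or more.

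Spiral ganglion neuron genes took 0.505% ± 0.0927 of the counts, with all 34 members at 1 CPM or more. The calretinin gene Calb2 had 508 ± 80.7 TPM and Nefl 505 ± 106 TPM, levels that overlap. Snap25, a synaptic release gene, was at 218, 256, 241, 304 and 313 CPM in WT 1 to 5. Of the 34 members 32 were above their own mean in WT 4 and 29 in WT 5, against 2 in WT 1, 12 in WT 2 and 7 in WT 3. Transcription factor genes of the ganglion were lower, such as Gata3 at 43.4 ± 6.56 TPM. Th, a marker of the sparse type II neurons, had 1.80 TPM.

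Lateral wall lists held more counts than the sensory epithelium and vestibular lists, but fewer than the neural lists. The list of otic fibrocytes and gap junctions took 0.559% ± 0.0489 of the counts. Beside Otos and Coch it held Otor, otoraplin, at 2102 ± 320.2 TPM, and Gjb6, the connexin 30 gene, at 313 ± 26.4 TPM, under Gjb2 in every library by TPM. Gjb2 was at 667, 542, 665, 725 and 642 CPM, and Gjb6 at 225, 262, 253, 290.4 and 241 CPM. Slc4a11, a transporter gene of fibrocytes, varied most, from 16.8 CPM in WT 1 to 42.8 CPM in WT 5.

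In the stria, genes of marginal cells took 0.104% ± 0.0107 of the counts. Slc12a2, the cotransporter that loads marginal cells with potassium, had 197 ± 33.3 TPM and made up 47.3% of this share. The channel subunit gene Kcne1 had 71.3 ± 11.2 TPM, above its partner Kcnq1. Bsnd, which encodes the chloride channel subunit barttin, had 14.3 TPM. Genes of intermediate cells, the melanocytes of the stria, took 0.0826% ± 0.00842. Dct, a pigment enzyme, had 402 ± 57.3 TPM and Kcnj10, the potassium channel behind the endocochlear potential, 93.2 ± 16.5 TPM. The pigment genes were unequal: Tyr had 11.3, Pmel 6.49 and Tyrp1 0.525 TPM. Of the basal, spindle and root cell list Cldn11, the tight junction protein of basal cells, had 503 ± 74.4 TPM, a gene that myelinating glia of the brain also use, and Slc26a4, pendrin, had 31.1 TPM.

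Sensory epithelium genes were sparse. The shared hair cell list took 0.0458% ± 0.00391 of the counts, with 24 of 28 members at 1 CPM or more. The unconventional myosin gene Myo6, which many other tissues express, made up 42.5% of this. Genes more restricted to hair cells were lower: Otof, the otoferlin of synaptic release, had 12.5 ± 1.67 TPM, the transcription factor Pou4f3 had 7.64 ± 1.02 TPM and Myo7a had 6.22 ± 0.932 TPM. The transduction channel gene Tmc1 had 2.83 TPM and its early partner Tmc2 0.156 TPM. Atoh1, which starts hair cell formation in the embryo, had 0.624 TPM. Pou4f3 was at 7.45, 7.67, 5.52, 7.95 and 6.79 CPM in WT 1 to 5.

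Among outer hair cell genes, Ocm, which encodes the calcium buffer oncomodulin, stood out at 226 ± 19.6 TPM. Its values were 58.0, 56.3, 60.5, 63.7 and 48.9 CPM. Slc26a5 did not share that evenness. Chrna10, a subunit of the efferent acetylcholine receptor, had 6.75 TPM. Lbh made up 66.8% of the outer hair cell list and Tbx2 66.8% of the inner hair cell list, and both genes are used widely outside hair cells. Slc17a8, the vesicular glutamate transporter of inner hair cells, was at 6.61, 5.43, 5.26, 7.72 and 5.46 CPM.

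Supporting cell genes took 0.150% ± 0.0104 of the counts, all 17 members at 1 CPM or more. Epyc, epiphycan, had 711 ± 80.2 TPM and made up 46.7% of the list. Emid1 had 255 ± 45.8 TPM. Sox2, a transcription factor of supporting cells that Schwann cells also express, had 38.4 TPM, Lgr5 10.8 TPM and Prox1 2.28 ± 0.982 TPM. Fgfr3, a receptor gene of pillar and Deiters' cells that cartilage also expresses, was among the steadiest members, at 86.8, 87.9, 94.2, 85.5 and 89.6 CPM. Of the tectorial membrane genes, Otoa, otoancorin, had 62.5 ± 10.4 TPM, Otog, otogelin, 33.3 ± 4.22 TPM, Ceacam16 31.6 ± 5.00 TPM and Tecta, alpha-tectorin, 7.95 ± 2.56 TPM. Tectb therefore stood above Tecta in TPM by means of 119 and 7.95. Otoconial genes of the vestibule were detected too: Oc90 was at 69.5, 68.5, 32.0, 62.8 and 40.1 CPM in WT 1 to 5, and Otol1 at 16.1 ± 3.48 TPM.

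Erythroid genes took 0.633% ± 0.275 of the counts, the largest share among blood lists, with all 19 members in the table at 1 CPM or more. Hba-a1 (Entrez 15122, chromosome 11, 32283672 to 32284486) was at 2392, 3454, 4118, 1316 and 1659.8 CPM in WT 1 to 5. Hbb-b1, an adult beta globin, was at 2046, 2793, 2548, 824 and 1207 CPM. Alas2, the enzyme that starts heme synthesis in red cells, was at 508, 422, 343, 184 and 229.7 CPM, and Slc4a1, the band 3 anion exchanger of the red cell membrane, at 525, 671, 798, 195 and 421 CPM. For each of these genes WT 4 and 5 were the lowest libraries. Klf1, a transcription factor gene of red cell precursors, had 103 TPM. Since Hba-a1 and Hba-a2, and the beta globins Hbb-b1 and Hbb-bs, are near-identical copies, their separate values are uncertain. Hbb-bs was at 16.2, 141, 66.2, 21.04 and 24.4 CPM, and unlike Hbb-b1 it was lowest in WT 1.

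The promoters of red cell genes commonly hold GATA motifs, which the erythroid factor GATA1 binds. The 250 bases before the start of transcription are shown for 3 erythroid genes, an alpha globin, a beta globin and the heme enzyme gene Alas2, because their list was among those that varied most between libraries, with the letters GATAA, or TTATC where the motif lies on the other strand, in capitals (RefSeq, GRCm38.p6, each written 5′ to 3′ on the gene's strand). Hba-a1 lies at chr11:32283422-32283671 on the plus strand, Hbb-bs at chr7:103827929-103828178 on the minus strand and Alas2 at chrX:150547167-150547416 on the plus strand.
Hba-a1: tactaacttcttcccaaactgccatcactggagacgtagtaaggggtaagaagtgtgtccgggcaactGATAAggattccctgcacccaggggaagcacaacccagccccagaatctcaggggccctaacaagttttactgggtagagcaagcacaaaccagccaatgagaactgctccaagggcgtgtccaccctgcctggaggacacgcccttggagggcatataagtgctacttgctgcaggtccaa
Hbb-bs: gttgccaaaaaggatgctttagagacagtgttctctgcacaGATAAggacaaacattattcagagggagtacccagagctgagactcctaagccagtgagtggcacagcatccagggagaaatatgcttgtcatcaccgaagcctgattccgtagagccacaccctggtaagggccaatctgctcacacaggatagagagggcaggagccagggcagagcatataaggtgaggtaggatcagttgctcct
Alas2: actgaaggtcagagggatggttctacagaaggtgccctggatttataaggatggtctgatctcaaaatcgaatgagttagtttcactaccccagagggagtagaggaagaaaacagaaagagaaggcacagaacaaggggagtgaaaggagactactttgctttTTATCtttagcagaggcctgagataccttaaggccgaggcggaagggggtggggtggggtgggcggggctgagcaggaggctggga

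Each of the 3 windows held 1 match to the motif, searched as GATAA on both strands. Of the erythroid list, 14 genes had a promoter in the RefSeq table, and 12 of them held a match, or 85.7%. Over all 32851 promoters in that table the share was 22.6%, and over 20 promoters of 19 neutrophil genes 3, or 15%. Hba-a1 and Hba-a2 carry the same sequence, identical at 297 of 297 bases compared at an offset of 3, so they do not count as separate cases. A match describes the letters in this window and shows no binding.

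Marrow and immune genes had smaller shares. Neutrophil and granulocyte precursor genes took 0.122% ± 0.0631 of the counts. The calprotectin genes S100a9 and S100a8 were at 1241 ± 672 and 977 ± 542 TPM, and granule genes of earlier stages were present, such as Mpo, myeloperoxidase, at 133 ± 60.2 TPM and Elane, neutrophil elastase, at 120.0 TPM. S100a8 was at 168, 340.0, 258, 94.1 and 74.6 CPM in WT 1 to 5. Among 18 lymphocyte genes the highest were those of B-cell precursors, with Vpreb1, a surrogate light chain gene, at 129.8 ± 45.0 TPM and Igll1 at 122.8 ± 55.1 TPM. The T-cell genes Cd3e, Cd3g and Cd8a had means of 0.252, 0.528 and 0.421 CPM.

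Macrophage genes took 0.151% ± 0.0255 of the counts. The complement gene C1qa had 179.8 TPM, Csf1r, the receptor for a macrophage growth factor, 116 TPM and Cx3cr1, a chemokine receptor gene, 33.2 TPM. Lyz2, lysozyme, which neutrophils share, was at 322, 437, 309, 160.0 and 151 CPM. Tmem119, used as a microglia marker but also made by osteoblasts, did not follow it, at 243, 229, 211, 273 and 224 CPM. Platelet genes took 0.0246% ± 0.00777, led by Pf4 at 215 ± 62.0 TPM.

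Vessel genes were present, and their summed shares varied little between libraries. Endothelial genes took 0.0988% ± 0.00667 of the counts, with all 17 members at 1 CPM or more. The tight junction gene Cldn5 had 132 ± 23.2 TPM and Eng, endoglin, 130.0 ± 19.6 TPM. Single endothelial genes varied more than their sum, with a median CV of 14.2% against 6.75%. Cldn5 ran from 50.1 CPM in WT 1 to 89.8 CPM in WT 2. Pericyte and smooth muscle genes took 0.0728% ± 0.00508. Of other tissue that can come with a dissection, the meninges list took 0.3003% ± 0.0397, but Ptgds made up 89.8% of it. Skeletal muscle genes took 0.0145% ± 0.00124, with 20 of 29 members at 1 CPM or more and a median over members of 1.84 CPM. Mybpc1 made up 24.8% of this share, while the muscle creatine kinase gene Ckm had a mean of 0.0469 CPM. Middle ear and squamous epithelium markers were nearly absent. Only Foxj1, of ciliated cells, and Trp63 of the 11 reached 1 CPM, while the keratin genes Krt5 and Krt14 had means of 0.0236 and 0.0231 CPM, below the limit that a count of 0 allows in a library.

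Genes that most tissues express strongly were unequal in the deposited counts. Gapdh, a glycolytic enzyme gene with many processed copies in the mouse genome, was low, at 13.5, 23.0, 29.1, 21.3 and 18.2 CPM. Actb was high, at 2338, 2161, 1756, 1947 and 1852 CPM. Per length the means were 36.2 ± 9.37 TPM for Gapdh and 2712 ± 321 TPM for Actb. The mitochondrially encoded genes were unequal too: COX1, CYTB and ND1 were among the 5 highest genes by TPM, while COX2 had 214 ± 25.7, COX3 118 ± 42.0 and ATP6 106 ± 58.6 TPM. ATP8, at 0.295 to 6.68 CPM, shares 43 of its 204 bases with ATP6. No source used here says how the authors' counting treated reads that match several places or overlapping genes, so these levels are uncertain.

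The spread between the 5 libraries was tested against counting noise with a chi-square index of dispersion on the raw counts. Of 17034 genes with a summed count of 25 or more, 13115 were called at an adjusted p under 0.05 (Benjamini-Hochberg), a background of 77.0%. The share called rose with the level: 30.2% of tested genes under 1 CPM, 59.6% from 1 to 10 CPM, 88.1% from 10 to 100 CPM and 98.8% from 100 to 1000 CPM. All 64 genes at 1000 CPM or more were called. A call therefore depends on the level of a gene, and lists of abundant genes had to be called nearly whole. All 34 neuron genes, all 25 myelin genes and all 20 neutrophil genes were called, while 18 of 27 tested shared hair cell genes were (66.7%), and Pou4f3 was not among them. None of the 3 tested middle ear genes was called.

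The size of the spread was modest for most genes. Over the 15262 genes with a mean of 1 CPM or more, the median CV was 14.4%. A CV under 10% was found for 4008 genes and a CV over 50% for 236. Among genes of 1000 CPM or more the median CV was 13.5%, so the spread did not vanish at high counts. The steadiest genes for their level were chosen by the values themselves and are listed as a description. Poldip3 (chromosome 15), which encodes a partner of DNA polymerase delta, was at 106, 106, 106, 105 and 107 CPM, a CV of 0.610%. Terf2ip, a telomere protein gene, had 1.08% and Wdr82, a subunit of histone methyltransferase complexes, 1.61%. Ctnnb1, beta-catenin, was the most abundant of the 12, at 1307, 1356, 1294, 1355 and 1308 CPM (CV 2.21%), and it alone among them was called. By edgeR's gene dispersion over its trend only 3 of the same 12 genes were again among the lowest 12, while all of the 12 most variable genes were again the highest.

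**Figure D3:**
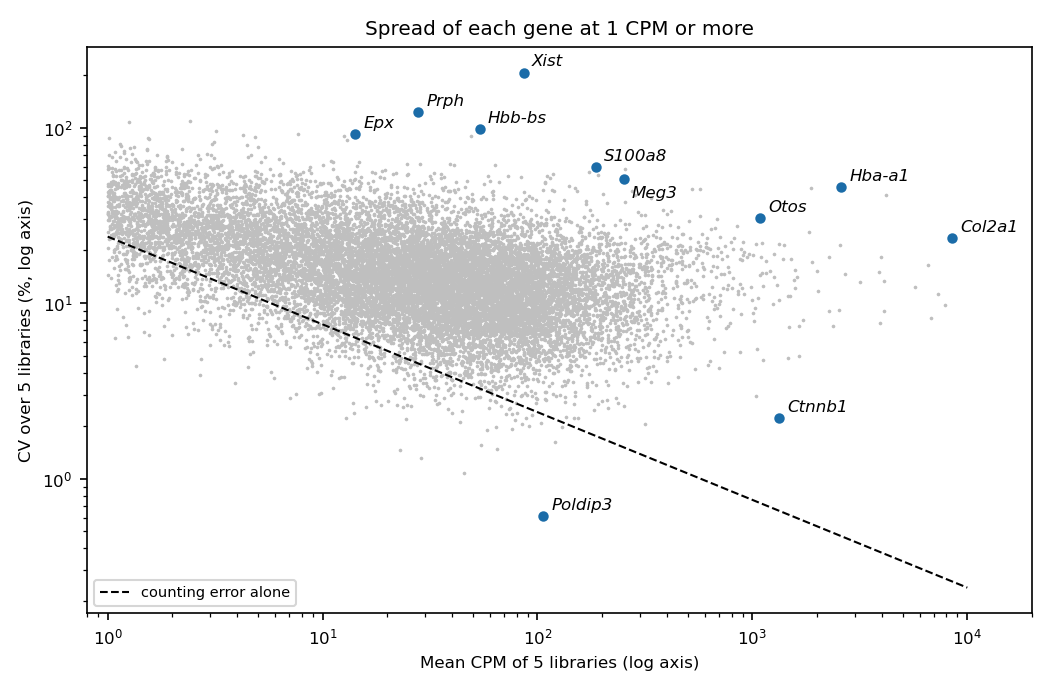
CV over the 5 libraries against mean CPM, both on log axes, for genes of 1 CPM or more (grey), with the CV that counting error alone would give (dashed). Most genes lie above the dashed line, Poldip3 lies below it at 0.610%, and Xist, Prph, Hbb-bs and Epx lie at the top.

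The 12 genes with the largest spread for their level were Xist, the neuron genes Prph and Avil, Hbb-bs, the eosinophil genes Prg2, Epx and Ear2, and the neutrophil genes Ltf, S100a8, Chil3, Lcn2 and S100a9. Among lists, 14 of 40 differed by more than 1.5-fold between the highest and the lowest library, 9 without WT 5 and 8 without WT 2 and 5. The neutrophil list differed by 3.77-fold, the erythroid list by 3.13-fold, the lymphocyte list by 2.61-fold and the cell cycle list by 2.5-fold. Without WT 2 and 5 these were 2.59, 3.13, 2.11 and 2.33-fold. By contrast the osteoblast list differed by 1.17-fold, the supporting cell list by 1.17-fold and the endothelium list by 1.20-fold. The inner hair cell list differed by 1.07-fold, but it is made up almost wholly of Tbx2 and the calcium pump gene Atp2a3, which had their extremes in opposite libraries, while Slc17a8 ranged over 1.47-fold.

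**Figure D4:**
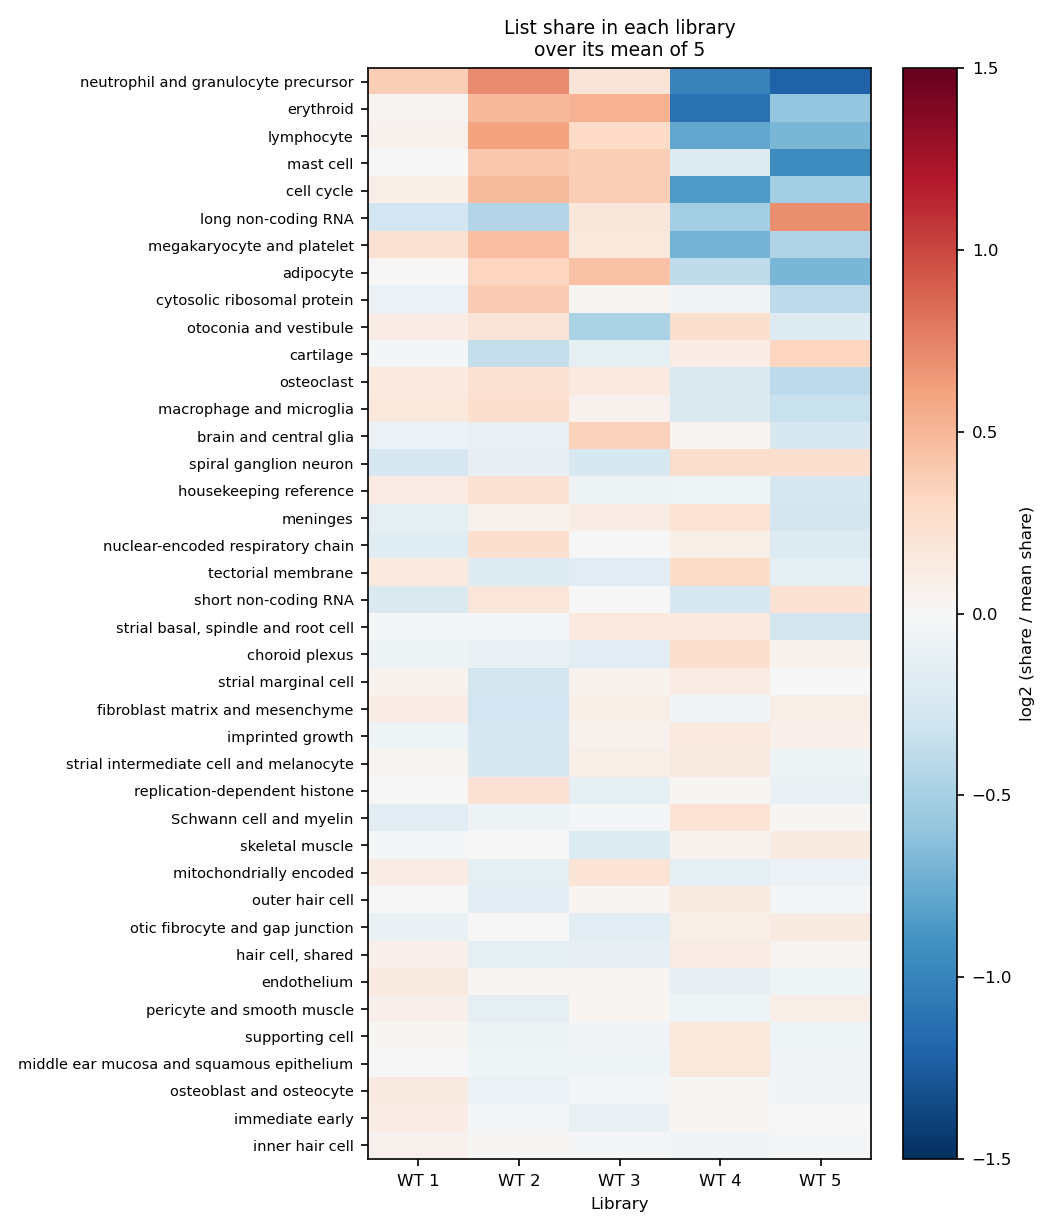
Share of each of the 40 lists in each library as log2 over its mean of 5 libraries, red above and blue below the mean, ordered by the ratio of the highest to the lowest library. Blood, marrow and cell cycle lists are red or near the mean in WT 1 to 3 and blue in WT 4 and 5, and the hair cell, supporting cell and otic fibrocyte lists are pale.

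The blood and marrow lists and the cell cycle list separated the same libraries. Of 19 erythroid genes, 16, 19 and 18 were above their own mean in WT 1, 2 and 3, and 0 in WT 4 and in WT 5. All 20 neutrophil genes were above their mean in WT 1, 2 and 3 and below it in WT 4 and 5. Of 25 cell cycle genes 20, 25 and 25 were above in WT 1, 2 and 3 and 0 in WT 4 and 5. Mki67, a nuclear protein of dividing cells, was at 335, 364, 396, 122.9 and 199 CPM, and Top2a, the topoisomerase of dividing cells, at 144, 186, 174, 70.3 and 88.6 CPM. Blood and marrow lists together held 1.04%, 1.35% and 1.27% of the counts in WT 1 to 3, and 0.515% and 0.634% in WT 4 and 5.

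Eosinophil genes also separated these libraries. A list of 10 genes, put together after the spread had been seen and therefore not tested, summed to 141, 160.0, 121, 5.88 and 8.13 CPM in WT 1 to 5, a 27.2-fold range. The list includes Prg2, Epx and Ear2, already seen among the genes of largest spread. Its range therefore cannot be ranked against those of the other lists. Prg2 (Entrez 19074, chromosome 2, 84980461 to 84983632), the major basic protein of eosinophil granules, was at 68.8, 99.9, 68.9, 2.36 and 4.005 CPM. Epx, eosinophil peroxidase, was at 29.3, 22.5, 17.9, 0.634 and 0.755 CPM. Prg2 and Epx were thus low but detected in WT 4 and 5, above the limit that a count of 0 allows, and the neutrophil gene S100a9 stood there at 118 and 101 CPM.

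Genes of peripheral sensory neurons followed another order of libraries. Prph (Entrez 19132, chromosome 15, 99053579 to 99058978), the peripherin filament of peripheral and of type II spiral ganglion neurons, was at 2.22, 36.3, 7.37, 84.1 and 8.997 CPM in WT 1 to 5. Avil, advillin of sensory neurons, was at 3.06, 14.9, 6.96, 31.1 and 6.68 CPM, and the purine receptor gene P2rx3 at 16.8, 35.6, 23.4, 63.3 and 25.7 CPM. A list of 19 genes of somatosensory and cranial ganglion neurons, also chosen after the spread had been seen, summed to 48.6, 135, 74.0, 252 and 87.9 CPM. Of its 12 members at 1 CPM or more, 10 were highest in WT 4 and 11 lowest in WT 1. The pain receptor gene Trpv1 stayed at a mean of 0.282 CPM. The spiral ganglion list varied 1.44-fold, with Nefl at 561, 621, 533, 796 and 774 CPM. WT 5 was high for Nefl and low for Prph, so the neuron genes did not all move together.

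**Figure D5:**
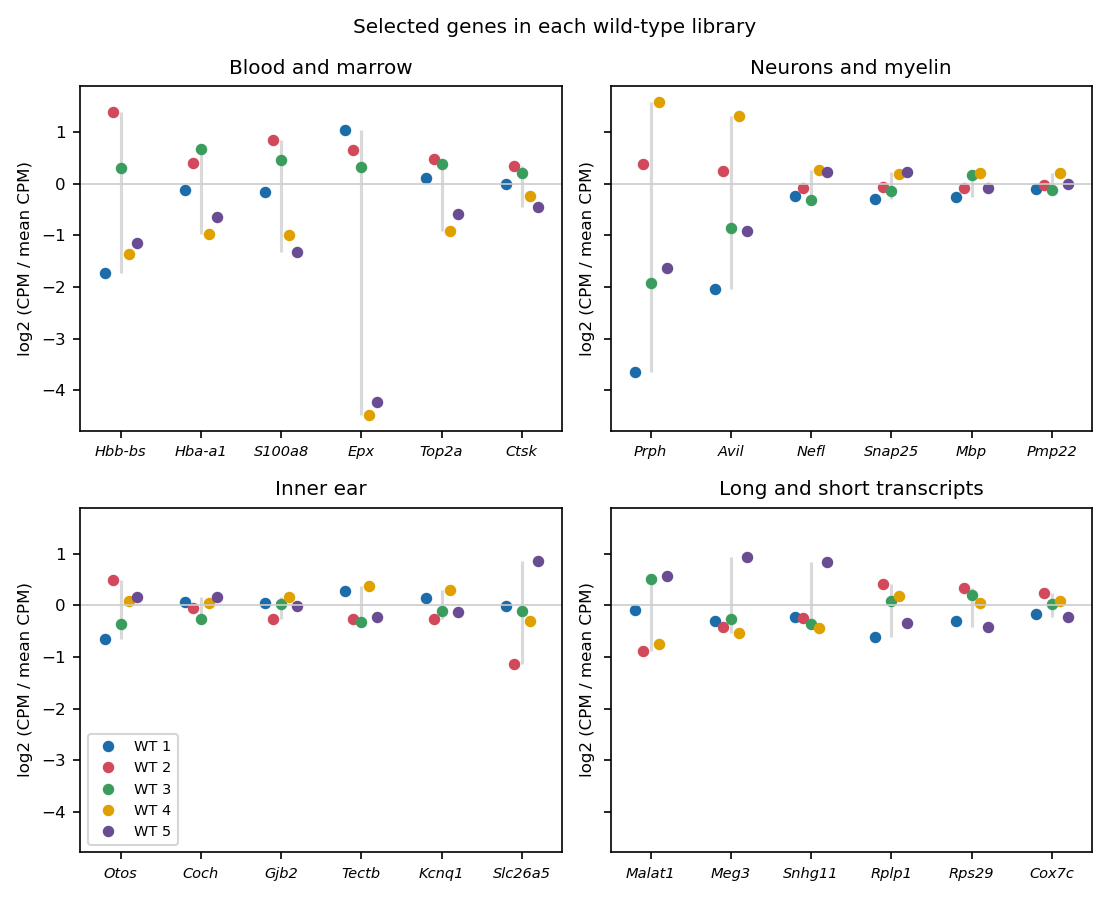
CPM of 24 genes in each wild-type library as log2 over the gene's mean of 5 libraries, in 4 panels, with 1 coloured point per library and a grey bar over the range. Epx is lowest in WT 4 and 5, Prph and Avil are highest in WT 4 and lowest in WT 1, Meg3 and Snhg11 are highest in WT 5, and Coch, Gjb2, Mbp and Pmp22 vary little.

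A further difference between libraries followed transcript length. Genes of 10 CPM or more were divided into 5 classes of equal size by exon length, and the median log2 deviation from the gene's own mean was taken in each library. In WT 2 it was 0.25 in the shortest class, of 354 to 1982 bases, and -0.25 in the longest, of 5787 bases or more. In WT 5 it was -0.16 and 0.19. In the other 3 libraries it stayed between -0.08 and 0.06 in all classes. All 82 ribosomal protein genes at 1 CPM or more were above their mean in WT 2 and none was in WT 5. Rplp1, an acidic ribosomal protein gene, was at 559, 1144, 911, 972 and 674 CPM. Ribosomal protein genes took 4.26% of the counts in WT 2 and 2.497% in WT 5. Nuclear-encoded respiratory chain genes took 1.39% and 1.01%, with 78 of 78 members above their mean in WT 2 and 2 in WT 5.

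Long transcripts showed the opposite. Of 12876 genes with a mean of 5 CPM or more, 410 differed by more than 2.5-fold between libraries, or 3.18%. Of these, 88 were highest in WT 5 and lowest in WT 2, with a median exon length of 8973 bases against 3460 over all 12876. They included the cytoskeletal genes Map1a, at 344, 236, 359.8, 389.8 and 594 CPM, and Dst, at 294, 175, 293, 257 and 441 CPM. A further 267 had their highest library among WT 1 to 3 and their lowest in WT 4 or 5. Another 18 were highest in WT 4 and lowest in WT 1, while 19 of the 267 had the reverse order. The count of 18 therefore does not by itself set that order of libraries apart. The imprinted non-coding RNA Meg3 was at 205, 188, 211, 173 and 479 CPM, and the nuclear non-coding RNA Malat1 at 539, 308, 814, 342 and 851 CPM. No source used here gives RNA quality values.

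Some inner ear genes had their extreme values in the same libraries. The supporting cell gene Prox1, at 7.99, 3.60, 8.04, 5.59 and 11.03 CPM in WT 1 to 5, was lowest in WT 2 and highest in WT 5, as was Slc26a5. Prox1 has 8390 exon bases and Slc26a5 has 2962. In the class of 1983 to 2988 bases the median log2 deviation was 0.092 in WT 2 and -0.063 in WT 5. These are opposite in sign to the deviations of Slc26a5. Otos, with 704 exon bases, was highest in WT 2. The part of the length trend in these values was not tested.

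Sex-linked genes differed between libraries. Xist, the RNA that coats the inactive X chromosome in female cells, was at 0.120, 28.4, 0.206, 0.173 and 403 CPM in WT 1 to 5. Y-linked genes, found in males, summed to 210.2, 202, 228, 199 and 105 CPM. WT 1, 3 and 4 thus had Xist at about the detection limit, WT 2 had both kinds of transcript with Xist low, and WT 5 had both at substantial levels.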

How the data were processed

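RNA was measured in 5 wild-type libraries, grouped by the genotype in the labels. The deposited table holds raw read counts per Entrez gene, as whole numbers, per the file headers and values. Per the submitters' processing notes, the tools were HISAT2, featureCounts and limma and the build mm10, with no version or step stated. No source used here gives the annotation, the strand setting or the treatment of multiply mapped reads, so overlapping and antisense genes cannot be told apart. The columns of the other group were not used.

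CPM was computed from library totals (16.6 to 19.4 M counts) with no further scaling. TPM used the union of exons over GENCODE M21 basic transcripts, known for 21610 of 27179 genes that held 98.5% of the counts. Of the IDs, 25275 were named through RefSeq (GRCm38.p6, the assembly of mm10), 18 through GENCODE, and 1886 had no name and took 0.473% to 0.968% of a library. They stayed in all totals.

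Genes with a summed count of 25 or more were tested for spread beyond counting noise by a chi-square index of dispersion over the 5 libraries. Expected counts were in proportion to library totals, and p-values were adjusted by Benjamini-Hochberg over 17034 genes, called under 0.05. The test was checked on simulated counts. Counts are from PCR-amplified reads without molecular identifiers, so limits cover counting error only. Spread for level is log2 CV minus its lowess fit on log2 mean CPM, over genes of 10 CPM or more. Deviations used log2(CPM + 0.5). A list's share is the sum over its members, without a test.

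Named genes were the 9 markers, the 15 highest by CPM and by TPM, the 12 with the highest and the 12 with the lowest spread for their level, the 3 highest members of each list per length with its most variable member, and near-identical copies. Some genes that this rule selects are not reported here. Other genes named were chosen after their values were seen. Members, lists and tests were chosen with earlier results of these data known. Python 3.11.15, scipy 1.17.1, statsmodels 0.14.6 and edgeR 4.0.16 in R 4.3.3 (TMM and relative log expression factors, gene dispersion) were used. Alternatives were these scalings, each library left out, other filters and thresholds, other lengths, and a denominator without the 20 top genes.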

Additional observations from a re-analysis of the deposited data

Results flagged for a closer look

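Of 217 values screened (the share of each list and the CPM of each gene named by rule, over 5 libraries), 11 had 1 library standing apart from the other 4, by a gap to the nearest library of more than 0.71 of the whole range. Chance flags about 1 in 20 groups that were not chosen by their values. The genes screened here include some picked for their spread, so the number of flags cannot be set against that rate. No cause was tested.

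WT 5 stood apart with Xist at 403 CPM, Meg3 at 479 CPM and the non-coding RNA Snhg11 at 208 CPM, each the highest library. WT 2 stood apart with the lowest values of Sparc, at 3392 CPM, and of the strial channel gene Kcnj10, at 147 CPM. It had the highest values of the histone gene H2bc4, at 41.8 CPM, and of the small nuclear RNA gene Rnu7, at 1.003 CPM. WT 4 had the highest values of Ush1c, a scaffold protein of hair bundles, at 51.8 CPM, and of Dpp10, at 6.69 CPM. WT 1 had the highest value of the histone gene H2ac18, at 23.7 CPM, and WT 3 that of the lipid droplet gene Plin4, at 10.5 CPM.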

How the results depend on the processing

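No paired analysis was possible because only the wild-type group was used, so replicate numbers had no partner. The number of genes with spread beyond counting noise, 13115, was 9805 to 13427 over all alternatives, including a threshold of 0.001, and the median CV lay between 11.6% and 14.99%, lowest without WT 2 and 5. The genes at 1 CPM or more in every library, 14655, numbered 14641 to 15433. Of 14 lists that differed by more than 1.5-fold, 9 to 14 did so when single libraries were left out, 9 without WT 5, and 8 without WT 2 and 5, an alternative chosen after seeing the data. The genes that held 50% of the total numbered 687 per length against 1337 by counts. Of 7 lists with 1% of the counts or more, 2 remained above 1% once the 20 top genes were removed, since these belong to the lists. Of the 12 steadiest genes, 3 were among the lowest 12 by edgeR's dispersion. Per length, 14 of the top 15 genes were shared with the longest transcript as length and 13 with all exons. Genes under 1 CPM, which include several hair cell regulators, rest on few counts, and a spread within counting noise does not show that they were constant.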
